A study of Mus musculus with 12 samples.

Results

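Transcript levels were examined for 10 genes that carry glucose into the cell and break it down to lactate: the glucose transporter Slc2a1, the hexokinases Hk1, Hk2 and Hk3, the phosphofructokinases Pfkl and Pfkp, the aldolase Aldoa, the phosphoglycerate kinase Pgk1, the pyruvate kinase Pkm and the lactate dehydrogenase Ldha. They were found as the array probe sets whose single gene symbol was 1 of these 10. This gave 12 of 34760 probe sets and 10 of 19937 genes, since Hk1 and Pkm each had a second probe set. RNA came from 2 populations of mouse bone marrow progenitors. LSK cells (Lin- Sca1+ c-Kit+) contain the blood stem cells and multipotent progenitors, and GMP cells, the precursors of granulocytes and macrophages, were sorted as Lin- Sca1- c-Kit+ CD34+ FcγR+. The 12 arrays formed 4 groups of 3, with LSK from KO mice set against LSK from WT mice and likewise for GMP. KO mice were C57BL/6J Mx-Cre Lamtor2f/f and WT mice were C57BL/6J Mx-Cre with Lamtor2 wt/wt alleles, and the strain label of both reads Mx1-Cre wt/wt. All mice, WT included, received pIpC, and cells were sorted 14 days later. The Mx1 promoter answers to interferon, which pIpC induces, in many cell types, so the deletion was not limited to the sorted cells. The labels give neither the age of the mice nor whether LSK and GMP arrays of the same number came from the same mouse. If they do not stand for separate mice, p-values measure only the spread between these arrays.

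Glycolysis begins when glucose enters through facilitative transporters and is trapped as glucose 6-phosphate by hexokinase. Phosphofructokinase then makes the committed step, aldolase splits the sugar, phosphoglycerate kinase and pyruvate kinase form ATP, and lactate dehydrogenase turns pyruvate into lactate and restores NAD+. Lamtor2 is a subunit of Ragulator, the lysosomal anchor of the Rag GTPases through which amino acids activate mTORC1. In other cells mTORC1 is known to raise glycolytic transcripts through Hif1a and Myc, and quiescent blood stem cells are known to rely on glycolysis.

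The bases before the gene starts are shown because ACGTG is among the core sites that hypoxia-inducible factors bind. Myc binds CACGTG, a palindrome that holds ACGTG on both strands. Sp1 binds GGGCGG. The sequences are RefSeq's of assembly GRCm38.p6, 250 bases upstream of each start, 5′ to 3′ on the strand of the gene, with ACGTG or its reverse complement CACGT in capitals. Hk2 and Pgk1 are shown from among the genes that passed a test below. Slc2a1 is shown as the transporter and did not pass in KO against WT. The windows of Pfkp and Hk3, which also passed a test, are not shown. All windows shown hold ACGTG, so they do not stand for the changed genes as a set.
Hk2, chr6:82774455-82774704, minus strand: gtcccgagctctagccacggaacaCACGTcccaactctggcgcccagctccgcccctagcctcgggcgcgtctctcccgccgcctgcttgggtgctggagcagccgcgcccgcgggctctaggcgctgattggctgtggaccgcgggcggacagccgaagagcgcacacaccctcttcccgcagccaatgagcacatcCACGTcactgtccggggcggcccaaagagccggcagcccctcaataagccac
Pgk1, chrX:106186850-106187099, plus strand: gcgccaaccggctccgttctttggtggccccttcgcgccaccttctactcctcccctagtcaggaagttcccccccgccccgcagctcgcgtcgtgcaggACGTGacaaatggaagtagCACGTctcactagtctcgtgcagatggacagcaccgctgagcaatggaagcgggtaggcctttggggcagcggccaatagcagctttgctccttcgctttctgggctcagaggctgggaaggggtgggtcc
Slc2a1, chr4:119108495-119108744, plus strand: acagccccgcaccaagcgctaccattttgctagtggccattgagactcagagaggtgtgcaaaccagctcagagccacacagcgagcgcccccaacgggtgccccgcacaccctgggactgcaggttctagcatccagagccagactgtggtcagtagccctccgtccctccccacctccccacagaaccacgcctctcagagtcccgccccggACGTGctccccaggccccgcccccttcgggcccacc
All 10 genes had such a window, 15 windows in all. ACGTG was found in 7 genes (Slc2a1, Hk2, Hk3, Aldoa, Pgk1, Pkm and Ldha), against 18.5% of 27025 genes, and in 8 of 15 windows, against 16.6% of 32851 windows. CACGTG was found in 1 gene, Ldha, and 1 window, against 6.86% of genes and 6.02% of windows. GGGCGG was found in 7 genes and 8 windows, against 35.4% of genes and 32.7% of windows. A gene with several windows had several chances of a match, and overlapping windows of Aldoa share letters. The Pfkp window held 0 copies of ACGTG and 4 of GGGCGG. Other forms of the hypoxia core, such as GCGTG, were not counted, and the Pfkp window does hold GCGTG. The counts of ACGTG are thus not counts of all such sites. A match describes the letters and shows no binding.

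Lamtor2 was low in every KO array. It read 5.11, 5.40 and 5.77 in LSK KO, against 10.39, 10.48 and 10.31 in LSK WT, and 5.53, 5.12 and 4.95 in GMP KO, against 10.80, 10.82 and 10.61 in GMP WT. All values are log2 intensities after robust multi-array averaging (RMA), and readings of 4.95 to 5.77 are thus what a deleted gene gave. One array, GMP KO replicate 1, correlated least with the arrays of its own group (0.979 on average) and received the lowest array weight, 0.190.

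Both sorted populations showed their own markers, and both KO populations also read higher than WT for transcripts of other cells. Markers are counted as higher or lower at a limma adjusted p under 0.05. At that threshold 2.49% of all genes were higher and 1.96% lower in LSK KO, and 5.78% higher and 10.3% lower in GMP KO. The mean over 10 GMP markers was 9.50 to 9.99 in LSK KO and 8.51 to 9.26 in LSK WT, with 3 of 10 higher, and it was 11.07 to 11.15 in GMP KO and 11.49 to 11.52 in GMP WT, with 4 of 10 lower. The mean over 9 LSK markers was 7.83 to 8.13 in LSK KO and 8.43 to 8.56 in LSK WT, with 3 of 9 lower. The mean over 16 macrophage markers was 6.38 to 7.19 in LSK KO and 5.95 to 6.13 in LSK WT, with 4 of 16 higher, and 7.51 to 8.0 in GMP KO and 6.18 to 6.28 in GMP WT, with 10 of 16 higher. Their summed linear level was 3191 to 7970 in LSK KO and 2282 to 2779 in LSK WT, and 11392 to 14933 in GMP KO and 3181 to 3723 in GMP WT. Of these 16 markers, Marco, Timd4, Cd5l and Spic averaged at most 5.84 in every group. Others were far above that in GMP KO: C1qb, a complement subunit, averaged 8.06 in LSK KO and 5.86 in LSK WT, and 10.02 in GMP KO and 5.76 in GMP WT. Vcam1 and Cd163 did not rise and averaged lower in KO in both cell types, not past the threshold. Vcam1 averaged 5.74 in LSK KO and 5.95 in LSK WT, and 7.25 in GMP KO and 7.34 in GMP WT. Cd163 averaged 6.42 in LSK KO and 6.65 in LSK WT, and 5.99 in GMP KO and 6.34 in GMP WT. Of 9 mast cell and basophil markers 3 were higher in LSK KO and 4 in GMP KO. Of these 4, 1 was Kit (0.43, limma adjusted p = 0.0485). Both populations are sorted for c-Kit, so Kit is not a marker of other cells here. Mature neutrophil markers varied between arrays of every group, and 0 of 10 were called, as were 0 of 7 erythroid markers. In replicates 1, 2 and 3 the neutrophil mean was 9.68, 8.06 and 7.79 for GMP KO. It was 9.71, 7.86 and 8.88 for GMP WT, 7.61, 9.27 and 7.92 for LSK KO, and 9.50, 8.01 and 7.60 for LSK WT. GMP KO replicate 1, the array of low weight, thus had the highest neutrophil mean of its group. Of 5 genes of the sorting gates 4 were measured, without Ly6a, which encodes Sca1. Among them the Fc receptor Fcgr3, which GMP are sorted for and LSK are not, averaged 8.27 in LSK KO and 5.91 in LSK WT. In such bulk samples fewer cells of a type and less RNA per cell cannot be told apart, and the part of these cells in the results below was not tested.

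**Figure D1:**
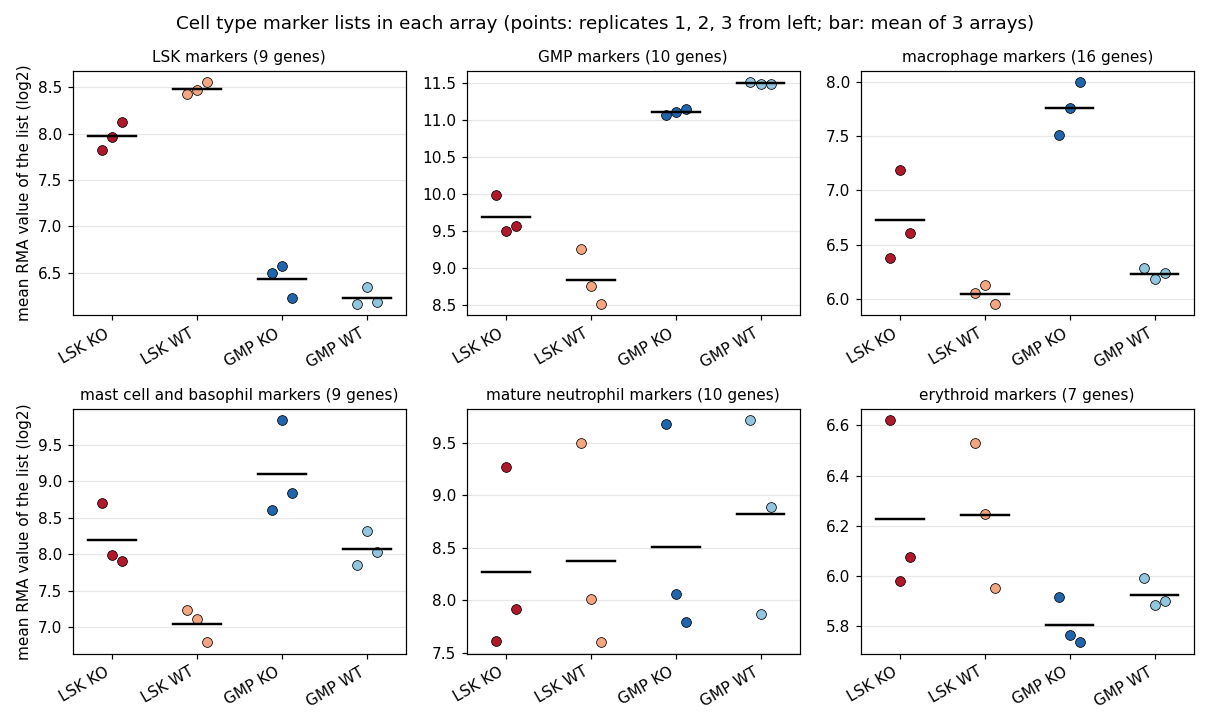
Mean RMA value (log2) of 6 cell type marker lists in each of the 12 arrays, by group, with replicates 1, 2 and 3 from left and a bar at the mean of 3 arrays. Macrophage markers averaged 7.51 to 8.0 in GMP KO against 6.18 to 6.28 in GMP WT, and the LSK KO array with the highest macrophage mean, 7.19, was replicate 2.

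In LSK the comparison of KO with WT asked whether the loss of Lamtor2 changed these transcripts in the stem and multipotent progenitor gate. Pfkp and Hk2, both for enzymes of early steps, rose in LSK KO, and 0 of the 10 genes fell. Pfkp was 1.50-fold and Hk2 1.40-fold the WT level. Of all genes tested 2.49% were higher and 1.96% lower at the same threshold, a limma adjusted p under 0.05, and the 2 of 10 are read against that. The median difference was 0.12 (log2) over the 10 genes and -0.013 over all genes. KO and WT arrays did not overlap in 6 of the 10, against 25.5% of all genes.

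In GMP, where the same question applied, the genes that passed were others and went down. Hk3 and Pgk1 fell in GMP KO, to 0.684-fold and 0.796-fold the WT level, and 0 of the 10 rose. Here 5.78% of all genes were higher and 10.3% lower, so that 2 of 10 lower is read against a larger background than in LSK. The median difference was -0.23 over the 10 genes and 0.015 over all genes. KO and WT arrays did not overlap in 5 of the 10, against 29.6% of all genes.

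The difference between the KO effects, LSK minus GMP, was tested directly. It passed for Pfkp, Hk2 and Pgk1, each with a higher KO effect in LSK than in GMP, and for 0 genes in the other direction. Over all genes 5.34% passed with a higher effect in LSK and 2.64% with a lower one. The estimate was positive for 9 of the 10 genes, with a median of 0.26, against -0.030 over all genes, and Hk1 was the exception. That exception depended on the probe set, since the other Hk1 set, described below, gave 0.074 (limma adjusted p = 0.829). The set used for the counts may not measure Hk1. The 3 genes that passed share their arrays with the comparisons above.

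**Figure D2:**
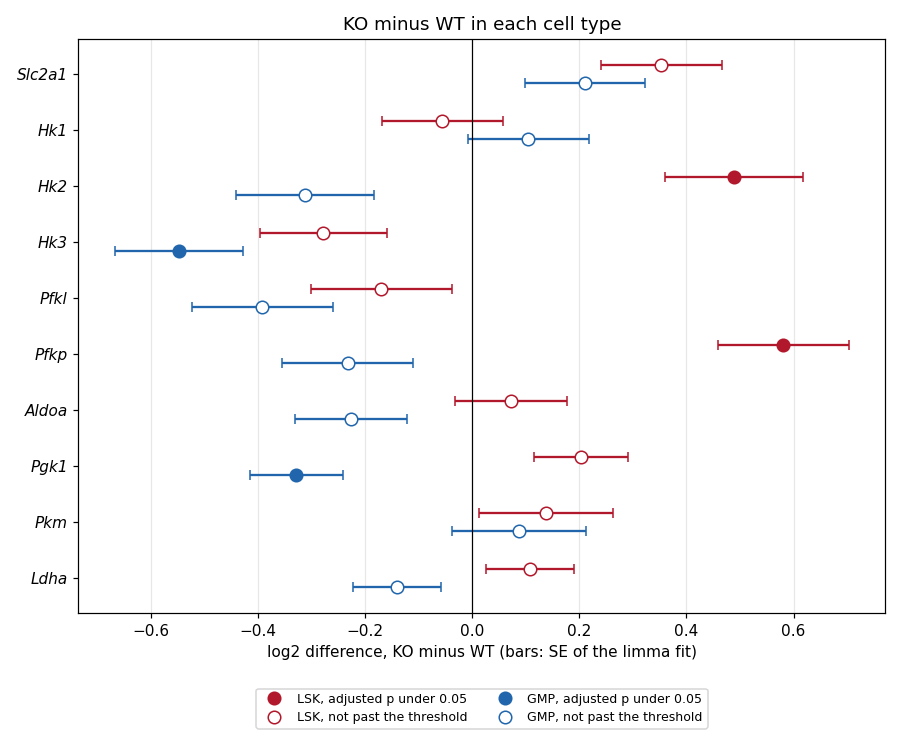
Difference of KO from WT (log2, x axis) for each of the 10 genes in LSK (red) and GMP (blue), with bars of 1 standard error (SE) of the limma fit and filled points where the adjusted p was under 0.05. Pfkp, Hk2 and Pgk1 lie right of 0 in LSK and left of 0 in GMP, while Slc2a1 lies right of 0 and Hk3 and Pfkl left of 0 in both.

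At the entry step, Slc2a1, the widely expressed glucose transporter GLUT1, read 8.52, 8.76 and 8.79 in LSK KO, against 8.24, 8.47 and 8.31 in LSK WT. Its GMP values were 8.19, 8.29 and 8.44 for KO, against 7.96, 8.21 and 8.12 in WT. The LSK groups did not overlap and the GMP groups did. The difference was 0.35 in LSK (SE 0.11, limma adjusted p = 0.104) and 0.21 in GMP (SE 0.11, adjusted p = 0.247), neither past the threshold. Slc2a1 ranked LSK KO first, then LSK WT, GMP KO and GMP WT, and only the first 2 of these neighbours did not overlap.

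At the phosphorylation step the 3 hexokinases differed from each other. Hk2, the inducible enzyme that binds mitochondria, read 7.74, 7.68 and 7.84 in LSK KO, against 7.29, 7.20 and 7.30 in LSK WT, so that every KO array lay above every WT array. The rise of 0.49 (SE 0.13) had a limma adjusted p of 0.0497, at the edge of the threshold. It was lost when any of the 6 LSK arrays was left out, which gave an adjusted p of 0.115 (KO replicate 1), 0.0946 (KO replicate 2), 0.176 (KO replicate 3), 0.122 (WT replicate 1), 0.175 (WT replicate 2) or 0.110 (WT replicate 3). It was also lost without GMP WT replicate 1, 2 or 3 (0.0745, 0.0666 and 0.0711), which enter only the shared spread. The difference itself stayed between 0.44 and 0.53 in all 23 alternatives.

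In GMP Hk2 read 7.41, 7.90 and 7.96 in KO, against 8.03, 8.17 and 8.0 in WT, again without overlap but with KO below. The difference of -0.31 (SE 0.13, limma adjusted p = 0.128) did not pass, and it was -0.14 without GMP KO replicate 1, the array that stood apart. The KO effect on Hk2 was higher in LSK than in GMP by 0.80 (SE 0.18, adjusted p = 0.0180). This call was lost without GMP WT replicate 2 (0.0579), LSK KO replicate 3 (0.0514) or LSK WT replicate 2 (0.0507), and held without GMP KO replicate 1.

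Hk3, the hexokinase typical of myeloid cells, fell in GMP KO. It read 8.31, 8.07 and 8.23 in GMP KO, against 8.83, 8.79 and 8.63 in GMP WT, with no overlap. The fall of 0.55 (SE 0.12) had a limma adjusted p of 0.00682 and was past the threshold in all 23 alternatives, with an adjusted p of 0.00278 to 0.0335. In LSK it read 7.15, 7.31 and 6.84 in KO, against 7.40, 7.31 and 7.42 in WT, a difference of -0.28 (SE 0.12, adjusted p = 0.260) that was -0.15 without LSK KO replicate 3. The KO effects in LSK and GMP differed by 0.27 (SE 0.17, adjusted p = 0.390), not past the threshold. Beside it, 4 of 10 GMP markers fell and 10 of 16 macrophage markers rose in GMP KO, and their part in the fall of Hk3 was not tested.

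Hk1, the housekeeping hexokinase, had 2 probe sets with unlike profiles. The brighter set, used for the counts, read between 11.75 and 12.07 in LSK KO and between 11.93 and 12.06 in LSK WT, and 11.72, 11.95 and 11.99 in GMP KO, against 11.92, 11.73 and 11.70 in GMP WT. Within each cell type KO and WT overlapped, and the difference was -0.06 in LSK (SE 0.11, limma adjusted p = 0.900) and 0.10 in GMP (SE 0.11, adjusted p = 0.610). This set was annotated to a single accession. The same accession stands in 15 other probe sets that also name the ribosomal protein gene Rpl17, and those followed the brighter Hk1 set (median root mean square difference of centred values over 12 arrays 0.122) more closely than the dimmer one (0.232). The dimmer set, with 8 accessions, averaged 9.15 in LSK KO, 9.20 in LSK WT, 8.74 in GMP KO and 8.87 in GMP WT. Its KO difference was -0.05 in LSK (adjusted p = 0.897) and -0.13 in GMP (adjusted p = 0.485). The 2 Hk1 sets had a root mean square difference of 0.222 from each other. The brighter set may thus not measure Hk1, and this was not tested. It still stands for Hk1 in the counts, medians and means over the genes and in the figures. Neither set passed in either cell type, and the sign in GMP differed between them.

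**Figure D3:**
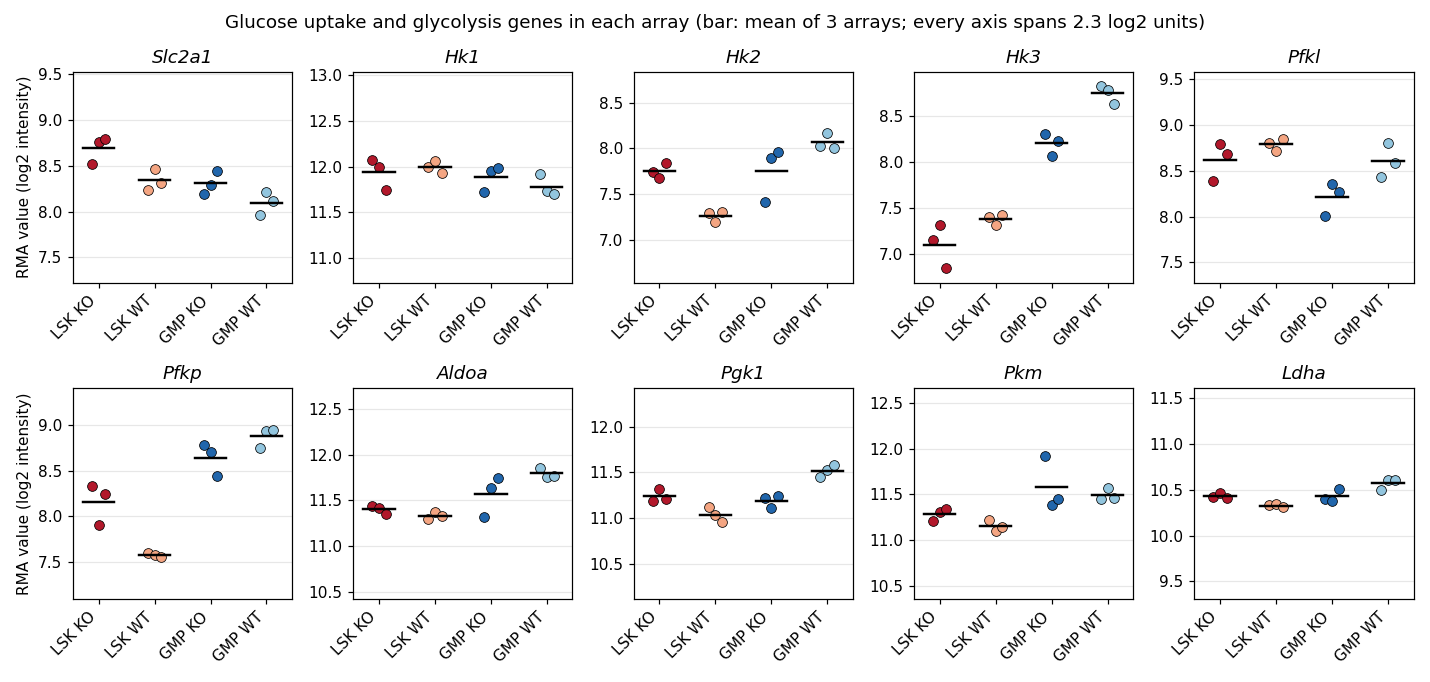
RMA values (log2, y axis, each spanning the same number of units) of the 10 genes in each array, by group, with a bar at the mean of 3 arrays. For Pfkp the 3 LSK KO arrays lie between 7.91 and 8.33, above the 3 LSK WT arrays at 7.56 to 7.60 and below the GMP arrays, and for Hk3 the GMP KO arrays lie between the GMP WT and the LSK arrays.

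At the committed step Pfkp, the platelet-type phosphofructokinase, had the largest KO difference of the 10 genes in LSK. It read 8.33, 7.91 and 8.24 in LSK KO, against 7.60, 7.58 and 7.56 in LSK WT. The WT arrays lay within 0.04 of each other and all KO arrays lay above them. The rise of 0.58 (SE 0.12) had a limma adjusted p of 0.0157. The call was lost without LSK KO replicate 1 (0.0685), LSK KO replicate 3 (0.0749) or LSK WT replicate 1, 2 or 3 (0.0525, 0.0618 and 0.0579), while the difference stayed between 0.50 and 0.71 in all 23 alternatives. In the same LSK KO arrays, in the order of replicates 1, 2 and 3, the mean of GMP markers was 9.99, 9.50 and 9.57 and that of macrophage markers 6.38, 7.19 and 6.61, and their part in the values of Pfkp and Hk2 was not tested.

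In GMP Pfkp read 8.78, 8.70 and 8.44 in KO, against 8.75, 8.93 and 8.94 in WT, and the groups overlapped. The difference was -0.23 (SE 0.12, limma adjusted p = 0.242). The KO effect on Pfkp was higher in LSK than in GMP by 0.81 (SE 0.17, adjusted p = 0.0130), and this passed in all 22 alternatives, with an adjusted p of 0.00421 to 0.0420.

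Pfkl, the liver-type subunit that neutrophils also make, had a difference of opposite sign to that of Pfkp in LSK. It read 8.39, 8.79 and 8.68 in LSK KO, against 8.80, 8.72 and 8.85 in LSK WT, and 8.01, 8.36 and 8.27 in GMP KO, against 8.43, 8.80 and 8.59 in GMP WT. The difference was -0.17 in LSK (SE 0.13, limma adjusted p = 0.630), where the groups overlapped. In GMP, where they did not, it was -0.39 (SE 0.13, adjusted p = 0.0611), just outside the threshold. It passed in 5 alternatives, with an adjusted p of 0.0282 to 0.0481.

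Aldoa, which splits fructose 1,6-bisphosphate, was nearly level in LSK. It read 11.44, 11.42 and 11.35 in LSK KO, against 11.30, 11.37 and 11.33 in LSK WT, a difference of 0.07 (SE 0.11, limma adjusted p = 0.848). In GMP it read 11.32, 11.64 and 11.74 in KO, against 11.85, 11.76 and 11.77 in WT, without overlap. The difference of -0.23 (SE 0.11, adjusted p = 0.178) was -0.10 without GMP KO replicate 1.

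Pgk1, the first ATP-forming enzyme of the pathway, had KO differences of opposite sign in the 2 cell types. It read 11.22, 11.11 and 11.24 in GMP KO, against 11.45, 11.53 and 11.58 in GMP WT, and the fall of 0.33 (SE 0.087) had a limma adjusted p of 0.0207. That call was lost without GMP KO replicate 2 (0.0563), GMP WT replicate 2 (0.0710) or GMP WT replicate 3 (0.0748), and when only the GMP arrays were fitted (0.0907). In LSK Pgk1 read 11.19, 11.32 and 11.21 in KO, against 11.12, 11.03 and 10.96 in WT, higher in every KO array but not past the threshold (0.20, SE 0.087, adjusted p = 0.264). The KO effect was higher in LSK than in GMP by 0.53 (SE 0.12, adjusted p = 0.0196). The call on this difference was lost without GMP WT replicate 2 (0.0547), GMP WT replicate 3 (0.0517) or LSK WT replicate 3 (0.0524), and when quantile normalisation was repeated (0.0609).

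Pkm, the enzyme that forms pyruvate, gave a different call with each of its 2 probe sets, and its known splice forms were not told apart here. The dimmer set was annotated to fewer sequence records, all of them shared with the brighter set. The brighter set read 11.21, 11.31 and 11.34 in LSK KO, against 11.22, 11.10 and 11.14 in LSK WT, a difference of 0.14 (SE 0.12, limma adjusted p = 0.705). In GMP it read 11.92, 11.38 and 11.45 in KO, against 11.45, 11.57 and 11.46 in WT. The high value is that of GMP KO replicate 1, and the difference of 0.09 (SE 0.12, adjusted p = 0.715) was -0.08 without it. The dimmer set read 10.65, 10.82 and 10.67 in LSK KO, against 10.19, 10.35 and 10.38 in LSK WT, without overlap. It passed with a difference of 0.41 (SE 0.11, adjusted p = 0.0446). In GMP the dimmer set averaged 10.88 in KO and 10.98 in WT, a difference of -0.10 (SE 0.11, adjusted p = 0.607).

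Ldha, which makes lactate, had narrow groups and small differences. It read 10.42, 10.47 and 10.41 in LSK KO, against 10.33, 10.34 and 10.31 in LSK WT, and 10.40, 10.38 and 10.51 in GMP KO, against 10.50, 10.61 and 10.61 in GMP WT. The LSK groups did not overlap, and the difference of 0.11 (SE 0.081) had a limma adjusted p of 0.615, in a test whose spread is pooled over the 12 arrays and moderated over all genes. In GMP the difference was -0.14 (SE 0.081, adjusted p = 0.292).

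Between cell types, most of the 10 genes read lower in LSK than in GMP in WT mice. There 6 of the 10 genes were lower in LSK than in GMP and 0 were higher, against 9.32% and 10.3% of all genes. Hk3 (-1.37), Pfkp (-1.29), Hk2 (-0.80), Pgk1 (-0.48), Aldoa (-0.46) and Ldha (-0.25) were the 6, with a limma adjusted p of 3.22e-06 for Hk3 and 0.0496 for Ldha at the 2 ends. Ldha lost its call in 12 of 23 alternatives. Pkm, at -0.34 (adjusted p = 0.0735), gained one in 9 of 23, and its dimmer set passed with -0.67 (adjusted p = 4.23e-04). In KO, Hk3 (-1.10, adjusted p = 5.91e-05) and Pfkp (-0.48, adjusted p = 0.0179) were lower in LSK than in GMP, and Slc2a1 was higher (0.38, adjusted p = 0.0347), against 5.79% and 10.1% of all genes. The call on Slc2a1 was lost in 8 of 23 alternatives, without GMP KO replicate 1 or 2 or LSK KO replicate 2 or 3 among them, with an adjusted p of up to 0.185. That on Pfkp was lost in 4, without LSK KO replicate 2 among them, with an adjusted p of up to 0.0999. The median LSK minus GMP difference of the 10 genes was 0.00018 in KO and -0.40 in WT, beside -0.049 and -0.029 over all genes.

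Hk2 differed between the cell types in WT, while in KO its difference did not pass and its sign changed with the array left out. It averaged 7.75 ± 0.08 in LSK KO and 7.76 ± 0.30 in GMP KO, a difference of -0.0022, against 7.26 ± 0.05 in LSK WT and 8.07 ± 0.09 in GMP WT (SD, n = 3 each). Without GMP KO replicate 1 the difference in KO was -0.18 (limma adjusted p = 0.249), and without GMP KO replicate 3 it was 0.10 (adjusted p = 0.633). For Ldha the cell type difference was 0.0025 in KO and -0.25 in WT, and for Pgk1 0.05 in KO and -0.48 in WT. That the KO and WT cell type differences are unequal for Pfkp, Hk2 and Pgk1 is the same contrast as the tested difference between KO effects. For Hk3 the order was GMP WT, GMP KO, LSK WT, LSK KO, with no overlap between neighbours, although the nearest LSK KO and LSK WT arrays both rounded to 7.31. For Pfkp the order was GMP WT, GMP KO, LSK KO, LSK WT, with only the 2 GMP groups overlapping. The dimmer Hk1 set was higher in LSK than in GMP in both genotypes (0.41 in KO, adjusted p = 0.0172, and 0.34 in WT, adjusted p = 0.0356), while the brighter one passed in neither.

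**Figure D4:**
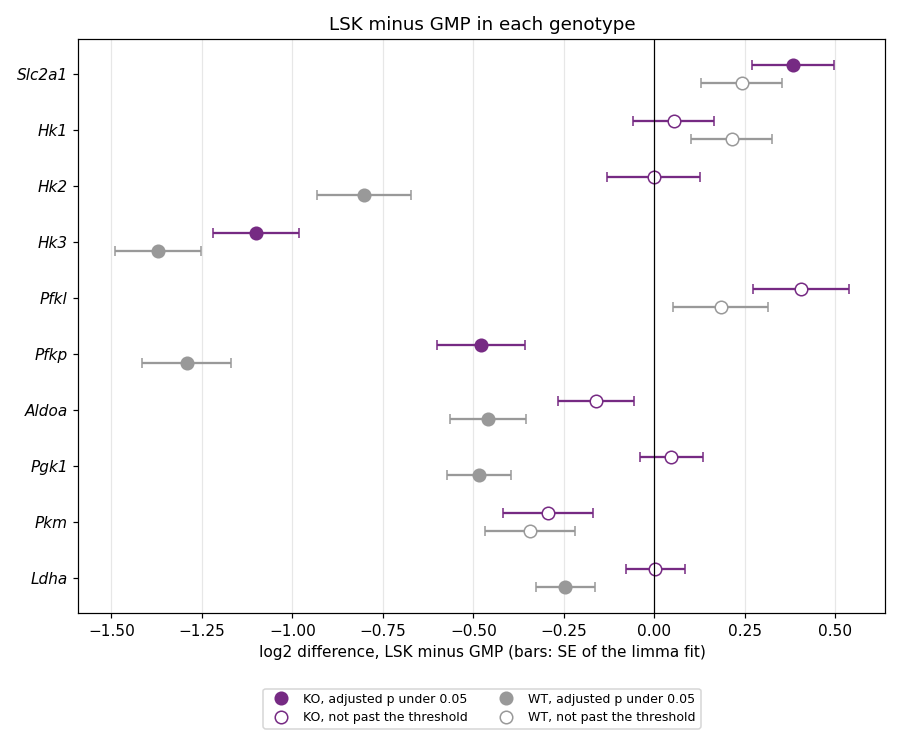
Difference of LSK from GMP (log2, x axis) for each of the 10 genes in KO (purple) and WT (grey), with bars of 1 SE and filled points where the limma adjusted p was under 0.05. The filled grey points of Hk2, Aldoa, Pgk1 and Ldha lie left of 0, where the purple points of Hk2, Pgk1 and Ldha lie within 0.05 of 0.

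The mean over the 10 genes was 9.65, 9.70 and 9.65 in LSK KO, against 9.53, 9.52 and 9.51 in LSK WT, and 9.73, 9.78 and 9.83 in GMP KO, against 9.92, 10.01 and 9.94 in GMP WT. All LSK KO arrays thus lay above LSK WT and all GMP KO arrays below GMP WT, with the distance between the cell types smaller in KO. This mean gives each gene the same weight and was not tested.

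Genes whose profile over the 12 arrays was closest to a changed gene were found by the root mean square difference of values centred on each gene's mean. For Pfkp they were Csgalnact2 (0.139) and Mapkapk3 (0.153), against a median of 0.522 over all genes. For Hk2 they were Anapc15 (0.0588) and Thyn1 (0.0691), against 0.365. For Hk3 they were Tmem50b (0.152) and Atrn (0.190), against 0.665, and for Pgk1 they were Mmut (0.0661) and Armc8 (0.0684), against 0.246. None of these 8 encodes a glycolytic enzyme.

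The wider pathway was described from 10 lists with 108 measured genes. In LSK KO 6 of the 108 rose and 3 fell, against 2.49% and 1.96% of all genes. In GMP KO 13 rose and 19 fell, against 5.78% and 10.3% of all genes. In the test of the difference between KO effects, 10 of 108 were higher in LSK and 4 lower, against 5.34% and 2.64% of all genes. The counts of single lists below are read against the same shares. The lists are short, so small counts can stand near these shares.

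Of 15 measured glycolytic enzymes outside the 10 genes, 1 fell in LSK KO and 3 rose and 2 fell in GMP KO, with medians of -0.10 and 0.05. Aldoc, the brain-type aldolase, read 6.66, 6.43 and 6.77 in LSK KO, against 7.47, 7.37 and 7.76 in LSK WT, a fall of 0.91 (SE 0.17, limma adjusted p = 0.00881). Ldhb, the subunit of lactate dehydrogenase that favours the reverse reaction, read 7.60, 7.22 and 7.64 in GMP KO, against 8.31, 8.56 and 8.35 in GMP WT, a fall of 0.92 (SE 0.16, adjusted p = 0.00172). Eno2, an enolase best known from neurons, rose by at least 1.03 (SE 0.11, adjusted p = 5.20e-05) in GMP KO. It read 6.11, 6.33 and 6.53 there, against 5.24, 5.30 and 5.33 in GMP WT, which lies in the range of the deleted Lamtor2. Ldhc, the testis form, passed as higher in GMP KO, but its 6 GMP arrays read 5.01 to 5.65, within that range, and no fold is given. Pgam1, chosen for naming after its values were seen, read 10.74, 11.12 and 11.21 in GMP KO, against 11.50, 11.43 and 11.36 in GMP WT (-0.40, adjusted p = 0.0371), and 10.85, 10.65 and 10.58 in LSK KO, against 10.37, 10.38 and 10.28 in LSK WT (0.35, adjusted p = 0.142). In the test of the difference between KO effects 1 of the 15 was higher in LSK and 2 were lower. Pgam1 was the higher one, by 0.75 (SE 0.17, adjusted p = 0.0178). Aldoc (-0.90, adjusted p = 0.0419) and Eno2 (-0.70, adjusted p = 0.0174) were the lower ones, with Aldoc at 5.25 to 5.91 in all GMP arrays and Eno2 at 5.34 to 5.90 in all LSK arrays, near the readings of the deleted gene.

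Of 13 other hexose transporters 1 rose in LSK KO and 3 in GMP KO, and 0 fell. Slc2a6, found in lysosomes of macrophages, read 7.0, 6.93 and 6.94 in LSK KO, against 6.34, 6.58 and 6.30 in LSK WT, and 7.86, 7.66 and 7.60 in GMP KO, against 7.05, 7.14 and 7.12 in GMP WT. It rose by 0.55 (SE 0.10, limma adjusted p = 0.00684) in LSK and by 0.60 (SE 0.10, adjusted p = 0.00133) in GMP, beside the rise of macrophage markers in both. Slc2a3, the high-affinity transporter GLUT3, rose by 0.45 (SE 0.13, adjusted p = 0.0260) and the intracellular Slc2a8 by 0.48 (SE 0.12, adjusted p = 0.0185) in GMP KO. The 4 measured enzymes that set fructose 2,6-bisphosphate, the activator of phosphofructokinase, had 0 changed in either cell type.

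Around pyruvate, 1 of 7 transport genes rose in LSK KO and 1 fell in GMP KO. Slc16a1, the lactate and pyruvate carrier MCT1, read 8.35, 8.05 and 8.32 in LSK KO, against 7.52, 7.76 and 7.57 in LSK WT, a rise of 0.63 (SE 0.11, limma adjusted p = 0.00623). In GMP it read 8.40, 8.40 and 8.42 in KO, against 8.63, 8.76 and 8.43 in WT, and the KO effects differed by 0.83 (SE 0.16, adjusted p = 0.00858). Emb, a membrane partner of such carriers, fell by 0.43 in GMP KO. Of 12 genes of pyruvate dehydrogenase and its regulators 0 changed in LSK KO, and 4 fell in GMP KO: the kinase Pdk3 (-0.63, adjusted p = 8.17e-04) and the subunits Pdhx (-0.43), Pdha1 (-0.38) and Dld (-0.36). The KO effects on Pdha1, Pdhx and Dld were higher in LSK than in GMP, by 0.71, 0.66 and 0.65.

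In the pentose phosphate pathway, which forms NADPH and ribose, 4 of 9 measured genes fell in GMP KO and 0 in LSK KO, with median differences of -0.34 and 0.0049. Pgd, the second NADPH-forming enzyme, read 10.33, 10.33 and 10.03 in GMP KO, against 11.10, 10.99 and 11.04 in GMP WT, a fall of 0.81 (SE 0.11, limma adjusted p = 2.91e-04). Taldo1 fell by 0.74, Rpia by 0.55 and Tkt by 0.34 in GMP KO, all enzymes that interconvert sugar phosphates. Of 11 glycogen genes 1 rose and 1 fell in LSK KO, and 1 rose and 3 fell in GMP KO. Gyg, the primer protein of glycogen, rose by 0.80 (SE 0.14, adjusted p = 0.00465) in LSK and by 1.08 (SE 0.14, adjusted p = 1.89e-04) in GMP. Glycogen synthase Gys1 (-0.45) and the branching enzyme Gbe1 (-0.65) fell in GMP KO. Gbe1 read 7.33, 8.07 and 8.23 there, against 8.54, 8.53 and 8.51 in GMP WT. Its lowest value was that of GMP KO replicate 1, the array that stood apart. The muscle phosphorylase Pygm fell in LSK KO (at least 0.60 lower on the log2 scale, estimate -0.60), where it averaged 5.48, within the range of the deleted gene. Of 8 gluconeogenesis genes 1 fell in LSK KO and 2 in GMP KO. The mitochondrial Pck2 fell by 0.52 in LSK and by 0.44 in GMP, and the glucose 6-phosphatase G6pc3 by 0.45 in GMP.

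Among known regulators and target genes, 2 of 20 in the hypoxia list rose in LSK KO, and 3 rose and 3 fell in GMP KO. Bhlhe40, a transcriptional repressor, read 7.79, 8.64 and 8.38 in LSK KO, against 6.09, 5.69 and 5.64 in LSK WT, and 8.59, 8.85 and 8.54 in GMP KO, against 5.62, 5.40 and 5.20 in GMP WT. Its rise was 2.46 (SE 0.20) in LSK, where WT replicates 2 and 3 read within the range of the deleted gene and WT replicate 1 above it. In GMP, where all WT arrays read within that range, its rise was at least 3.26 (SE 0.20). In the test of the difference between KO effects 2 of the 20 were higher in LSK, Ero1a and Egln1, and 1 was lower, Ndrg1. Ero1a, an oxidase of the endoplasmic reticulum, read 9.46, 9.34 and 9.30 in LSK KO, against 8.74, 8.59 and 8.94 in LSK WT, and 9.57, 9.99 and 10.06 in GMP KO, against 10.48, 10.49 and 10.62 in GMP WT. The difference of 0.61 (SE 0.13, limma adjusted p = 0.0172) in LSK and that of -0.65 (SE 0.13, adjusted p = 0.00424) in GMP both passed, and they differed by 1.27 (SE 0.19, adjusted p = 0.00230). For Egln1, an oxygen-sensing hydroxylase, the KO effects differed by 0.64 (adjusted p = 0.0249). For Ndrg1, a stress-response gene, they differed by -0.76 (adjusted p = 0.0439), the opposite sign. The collagen hydroxylase P4ha1 fell by 0.93 in GMP KO. It read 6.59, 7.17 and 7.49 there, against 7.86, 8.15 and 8.02 in GMP WT, with the lowest value in GMP KO replicate 1, the array that stood apart. The transcription factor Epas1 rose by at least 0.97 in GMP KO, since it averaged 5.69 in GMP WT, within the range of the deleted gene. Hif1a differed by -0.0080 in LSK and -0.18 in GMP, neither past the threshold.

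Of 9 genes around Myc and the carbohydrate response, 1 rose in LSK KO and 3 in GMP KO. Myc read 12.29, 12.25 and 12.32 in LSK KO, against 11.92, 11.77 and 11.85 in LSK WT, a rise of 0.44 (SE 0.09, limma adjusted p = 0.0160), and differed by 0.12 (adjusted p = 0.476) in GMP. Txnip, which restrains glucose uptake, read 10.39, 10.84 and 10.53 in GMP KO, against 9.43, 9.59 and 9.37 in GMP WT, a rise of 1.12 (SE 0.12, adjusted p = 4.40e-05). In LSK it read 11.36, 11.20 and 11.31 in KO, against 11.34, 11.55 and 11.46 in WT. The KO effect on Txnip was lower in LSK than in GMP by 1.28 on the log2 scale (estimate -1.28, SE 0.17, adjusted p = 0.00148), opposite in sign to Pfkp, Hk2 and Pgk1. Its relative Arrdc4 rose by 0.63 in GMP KO, and Mlxip, the glucose-sensing transcription factor known to drive both, rose by 0.30.

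**Figure D5:**
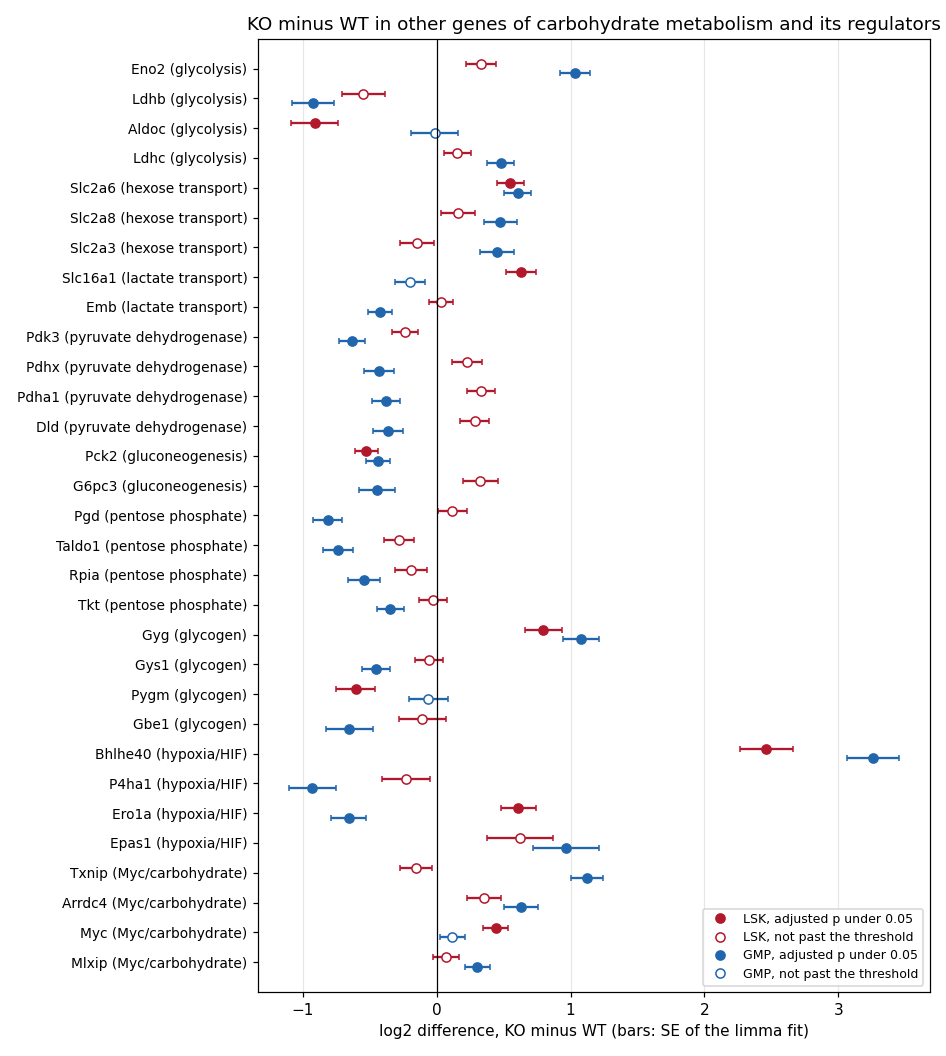
Difference of KO from WT (log2, x axis) in LSK (red) and GMP (blue) for the named genes of the wider carbohydrate lists, with bars of 1 SE and filled points where the limma adjusted p was under 0.05. The pentose phosphate and pyruvate dehydrogenase genes lie left of 0 in GMP, and Slc16a1 and Ero1a lie right of 0 in LSK and left of it in GMP.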

How the data were processed

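The deposited values are log2 intensities made by the authors with RMA (background correction, quantile normalisation and probe set summary), per the submitters' processing notes. Which program ran RMA is not given in the sources used here. No normalisation was added. Of 34760 probe sets 21640 had a single gene symbol. The brightest set of each gene by mean was kept, which left 19937 genes. The 4 groups were fitted together with limma 3.58.1 in R 4.3.3 (lmFit and eBayes, 8 residual and 5.16 prior degrees of freedom), with two-sided tests and Benjamini-Hochberg adjustment over all genes at a threshold of 0.05. Every adjusted p is from limma. The script was tested on simulated data. Differences are on the log2 scale with the SE of the fit. The number of arrays limits the precision.

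The genes, lists, motifs and tests were chosen with earlier results of these data known. Genes named were the 10 genes and, per list, up to 4 with the smallest p past the threshold in a KO comparison. Of the carbohydrate lists, Pgam1, Egln1, Ndrg1 and Hif1a were named outside this rule. Alternatives changed normalisation, filters, probe sets, eBayes options, weights, groups fitted and replicate block, or left out arrays. Use of the dimmer probe sets, and array weights without GMP KO replicate 1, were added after the data were seen. Same-numbered arrays were not taken as paired, since the labels do not say whether they share a mouse. The correlations of their deviations ran between -0.18 and 0.18 for LSK and GMP of the same genotype. For KO and WT of the same cell type, which cannot share a mouse, they ran between -0.15 and 0.28. These correlations cannot settle the pairing.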

Additional observations from a re-analysis of the deposited data

Results flagged for a closer look

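The effect of Lamtor2 loss differed between LSK and GMP, by the test of the difference itself, for 3 of the 10 genes. The KO effect in LSK minus that in GMP was 0.81 for Pfkp, 0.80 for Hk2 and 0.53 for Pgk1 on the log2 scale. Of all genes 5.34% passed this test with a higher effect in LSK and 2.64% with a lower one. Of 22 alternatives, Hk2 lost its call in 3, Pgk1 in 4 and Pfkp in 0. In each of the 3 the estimate was above 0 in LSK and below 0 in GMP. The arrays of KO and WT did not overlap in either cell type for Hk2 and Pgk1, and for Pfkp they overlapped in GMP. Beyond the array weights, the correlations within groups and the fits without each array, groups of 3 arrays were not screened for single outlying arrays.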

How the results depend on the processing

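In 1140 recalculations of single genes under 22 or 23 alternatives each, 1039 kept sign and side of the threshold, 51 lost a call, 24 gained one and 26 changed sign, all 26 of Hk1, Hk2, Pkm or Ldha in comparisons where the gene had not passed. The number of the 10 genes called in LSK KO against WT, 2, was 1 with arrays centred on their median and 1 with the number as a fixed replicate block, 0 with a fold change of at least 1 (log2) required as well, and 0 to 2 with an array left out (0 without LSK KO replicate 1 or 3 or any LSK WT array). In GMP, 2 became 1 in a fit of the compared groups only and 0 with the fold change, and 1 to 3 with an array left out. For the difference between KO effects, 3 became 0 with the fold change and 1 to 3 with an array left out (1 without GMP WT replicate 2). For WT LSK against WT GMP, 6 became 2 with the fold change, 8 with the mean of all probe sets or with the other probe sets of Hk1 and Pkm, and 5 to 7 otherwise. For KO LSK against KO GMP, 3 became 1 with array weights, with or without GMP KO replicate 1, in a fit of the compared groups only, and with the fold change, and 1 to 4 with an array left out (1 without LSK KO replicate 2). The fixed replicate block ended the calls of Hk2 in LSK (adjusted p = 0.0580) and of Ldha between WT cell types (0.0794) and added Pfkl in GMP (0.0325) and between KO cell types (0.0293). The random block changed no call.

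Sign changes were as follows. Hk1 was -0.12 to 0.040 in LSK with an array left out, and in GMP -0.011 with the mean of its probe sets and -0.13 with the dimmer set, which also turned the difference between KO effects to 0.074. Pkm in GMP was -0.0057 with the mean of its sets, -0.017 with array weights, -0.072 with these and no GMP KO replicate 1, -0.10 with the dimmer set, and -0.080 to 0.19 with an array left out. The Pkm difference between KO effects was -0.048 with quantile normalisation repeated and -0.053 to 0.22 with an array left out. In KO LSK against KO GMP, Hk1 was -0.0044 with array weights, -0.023 without GMP KO replicate 1 as well, and -0.032 to 0.15 with an array left out, and Hk2 was -0.18 to 0.10. Ldha there was -0.011 with quantile normalisation, -0.028 with array weights, -0.017 without GMP KO replicate 1 as well, and -0.021 to 0.044 with an array left out. The cause was not tested.

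Over all genes the LSK comparison called 1734 with array weights, 1672 without GMP KO replicate 1, 1701 with both and 1390 in a fit of the LSK arrays only, against 886, and 455 to 563 without LSK KO replicate 2 or 3 or any LSK WT array. The GMP comparison called 1778 in a fit of the GMP arrays only and 1853 without GMP WT replicate 2, against 3212. The difference between KO effects called 800 to 1056 without GMP WT replicate 2 or 3, LSK KO replicate 3 or LSK WT replicate 1 or 2, against 1591, and KO LSK against KO GMP called 1327 in a fit of those arrays only and 1667 without LSK KO replicate 3, against 3160. Other scalings moved the median of all genes by at most 0.095. With 3 arrays a group, a gene that missed the threshold is not shown to be level.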
